A study of Mus musculus with 2 samples.

Results

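The genes described here are 10 components of insulin-like growth factor (IGF) and insulin signalling: the ligand gene Igf1, the binding protein genes Igfbp4 and Igfbp5, the receptor genes Igf1r and Insr, the adaptor genes Irs1 and Irs2, the kinase genes Akt1 and Akt2, and Mtor. They were chosen by name, all 10 were found in the annotation, and they stand beside 21911 protein-coding genes in all. Chromatin accessibility around them was read by DNase-seq, in which DNase I cuts open chromatin in isolated nuclei and the released ends are sequenced. The tissue was gastrocnemius, a calf muscle, from male mice of 25 days of the strain B6CASTF1/J, the F1 cross of C57BL/6J and CAST/EiJ. There was 1 group of 2 biological replicates with no treatment named, so the libraries are compared with each other and the genes with other genes. The sample descriptions number different males while the donor identifier is shared, so the separate origin of the libraries rests on the descriptions. The labels give sequencing instruments for replicate 1 alone, so differences of animal and of sequencing cannot be told apart.

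IGF1 and insulin bind receptor tyrosine kinases on the muscle fibre, which phosphorylate the IRS adaptors. These recruit PI3-kinase, which activates the AKT kinases, and AKT in turn acts on mTOR complexes, FOXO factors and glucose transport. In muscle the pathway is known for driving growth of the fibre, restraining protein breakdown and raising glucose uptake. IGF binding proteins hold IGFs outside the cell and set how much reaches the receptor.

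Peaks were read at 2 kinds of place. A start peak lay within 1 kb of any annotated transcription start of the gene, and a distal peak lay over 1 kb from every annotated start and within the gene or 50 kb of either end. A peak's signal is the authors' deposited value. It moved in whole steps (within 0.1 of a whole number) of 0.00592 in replicate 1 and 0.00855 in replicate 2, as tag counts scaled to libraries of 169 M and 117 M tags would, a reading taken from the values. Replicate 1 had 97499 peaks and 243784 footprints (short stretches protected from cutting within open chromatin), against 61664 and 171389 in replicate 2. Of these peaks, 51.0% and 79.7% overlapped a peak of the other library. All 6 muscle fibre markers had start peaks in both libraries, while the leukocyte markers Ptprc and Cd68 and the hepatocyte markers Alb, Apoa1 and Ttr had none. Markers of the other cells of muscle had start peaks in both libraries too. These were 3 of 3 for endothelium and 2 of 2 each for fibro-adipogenic cells, pericytes and Schwann cells. A start peak in both libraries was found for 63.0% of all coding genes, so these small counts do not measure cell content. Percentiles of start signal were taken among coding genes with a start peak, as the mean of the libraries. The fibre markers ran from 29.9 (Myod1) to 78.5 (Actn3), with a median of 59.1. The Schwann median lay above it, at 82.4, and those of fibro-adipogenic cells (51.6) and pericytes (30.3) below. The endothelial markers ran from 8.8 (Pecam1) to 31.5 (Eng). The satellite cell marker Pax7 had signals of 0.686 and 0.931, Myf5 had a peak in replicate 1 alone, Plin1 but not Adipoq stood for adipocytes, and the neuronal genes Snap25 and Syt1 had peaks in both libraries. Whole muscle was used, so an open site in few nuclei and a weakly open site in many cannot be told apart.

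The sequences on which the results turn are shown first, as the C57BL/6J reference on build mm10, 5′ to 3′ in the direction of the gene, with capitals for bases inside footprints of both libraries. The CAST/EiJ alleles of the F1 mice are not shown. The 8 stretches were picked to show the strongest sites at and away from the starts, and the footprints that hold a motif.
Igf1 upstream peak, chr10:87854561-87854700 (plus strand): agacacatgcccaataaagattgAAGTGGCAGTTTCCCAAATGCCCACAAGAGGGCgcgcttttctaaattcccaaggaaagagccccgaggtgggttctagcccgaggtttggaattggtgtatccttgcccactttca
Igfbp5 start peak, upstream part, chr1:72874885-72875020 (minus strand): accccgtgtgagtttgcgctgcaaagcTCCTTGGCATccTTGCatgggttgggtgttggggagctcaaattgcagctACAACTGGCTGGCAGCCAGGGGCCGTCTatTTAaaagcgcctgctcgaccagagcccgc
Igf1r start peak, chr7:67951661-67951900 (plus strand): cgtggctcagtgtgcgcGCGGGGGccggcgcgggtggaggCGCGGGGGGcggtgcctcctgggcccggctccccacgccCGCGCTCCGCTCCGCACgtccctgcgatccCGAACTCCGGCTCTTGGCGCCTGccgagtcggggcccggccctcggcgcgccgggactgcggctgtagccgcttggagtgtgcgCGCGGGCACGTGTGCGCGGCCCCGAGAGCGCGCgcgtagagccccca
Igf1r intron peak, chr7:68129101-68129320 (plus strand): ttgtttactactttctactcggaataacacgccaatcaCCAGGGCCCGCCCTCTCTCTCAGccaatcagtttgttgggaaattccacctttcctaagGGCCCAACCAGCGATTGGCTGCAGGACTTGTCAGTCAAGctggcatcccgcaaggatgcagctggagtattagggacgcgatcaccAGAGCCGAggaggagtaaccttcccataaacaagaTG
Insr intron peak, chr8:3221061-3221300 (minus strand): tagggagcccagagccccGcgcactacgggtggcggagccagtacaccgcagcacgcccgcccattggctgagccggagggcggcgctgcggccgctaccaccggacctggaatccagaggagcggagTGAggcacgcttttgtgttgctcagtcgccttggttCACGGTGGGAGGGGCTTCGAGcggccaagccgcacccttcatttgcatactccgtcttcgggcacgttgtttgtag
Irs2 start peak, chr8:11008881-11009120 (minus strand): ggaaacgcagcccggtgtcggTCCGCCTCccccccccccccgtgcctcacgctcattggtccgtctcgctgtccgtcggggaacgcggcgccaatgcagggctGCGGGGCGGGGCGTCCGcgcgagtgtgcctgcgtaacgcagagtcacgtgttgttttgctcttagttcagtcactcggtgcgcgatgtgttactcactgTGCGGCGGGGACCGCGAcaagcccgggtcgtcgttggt
Irs2 downstream peak, chr8:10946121-10946320 (minus strand): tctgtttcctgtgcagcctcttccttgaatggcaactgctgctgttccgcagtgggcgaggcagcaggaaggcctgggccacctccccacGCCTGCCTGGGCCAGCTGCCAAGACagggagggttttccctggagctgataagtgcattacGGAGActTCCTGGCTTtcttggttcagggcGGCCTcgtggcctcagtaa
Akt1 start peak, chr12:112675361-112675540 (minus strand): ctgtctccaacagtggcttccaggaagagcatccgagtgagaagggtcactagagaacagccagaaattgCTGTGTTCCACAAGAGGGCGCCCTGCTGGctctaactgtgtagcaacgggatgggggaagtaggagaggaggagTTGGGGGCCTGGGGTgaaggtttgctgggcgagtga
The Igf1r intron peak is an example of a site with several footprints in a moderately GC-rich sequence, and the Igf1r start peak of a GC-rich promoter. The Igf1 upstream peak and the Akt1 start peak carry the identical run CCACAAGAGGGC inside a footprint of both libraries, a match to CTCF described with the other motifs.

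All 10 genes had a start peak in both libraries, and all 10 also had one in the shorter, stricter peak list of each. Among all coding genes, 63.0% (13802 of 21911) had a start peak in both libraries, and 12647 had one in both shorter lists. The strength of the peaks differed more between the genes: Igf1r, Irs2 and Insr lay above the median of coding genes with a start peak in both libraries, and Igf1, Akt1, Igfbp4 and Igfbp5 lay below it in both. Irs1, Akt2 and Mtor lay above it in replicate 1 and below it in replicate 2. The median percentile of the 10 genes was 54.3 in replicate 1 and 44.9 in replicate 2, close to the midpoint that all coding genes with a start peak have by construction.

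**Figure D1:**
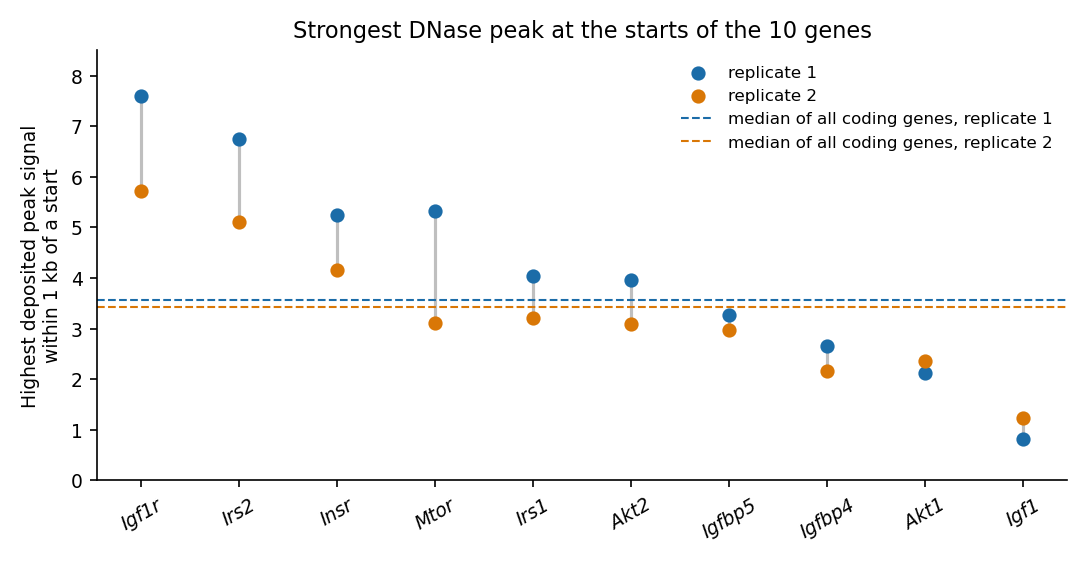
Highest deposited peak signal within 1 kb of an annotated start of each gene (vertical axis, from 0), with 1 point per library joined by a grey line and dashed lines at the medians of all coding genes with a start peak (3.57 and 3.44). Igf1r is the highest at 7.59 and 5.72, and Igf1 the lowest at 0.816 and 1.23.

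Igf1 (chr10:87858265-87937042, plus strand) encodes the IGF1 ligand, which muscle makes for local use. Its start peaks were the weakest of the 10 genes, with highest signals of 0.816 and 1.23 in replicates 1 and 2 (mean 1.02 ± 0.293, SD, n = 2), at percentiles 14.1 and 17.4. The highest peaks of the libraries did not overlap, so this mean and SD join different sites. In replicate 1 the highest peak lay 43 bp past the start of transcript Igf1-202, where replicate 2 had no overlapping peak. In replicate 2 it lay 271 bp past the start of Igf1-201. At the latter place replicate 1 had 0.793. Within 1 kb of the outermost 5′ end, the start of Igf1-207, only replicate 1 had a peak, so Igf1 is the gene that loses its call when that end alone is used. Of its 5 start peaks in replicate 1, 4 overlapped one of replicate 2. Its mean percentile of 15.8 became 30.8 with the signals of all start peaks summed and 9.2 with the shorter peak lists.

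Sites of similar height lay away from the Igf1 starts. With distances from the 5′ end and negative values upstream, a peak at −40284 bp had 1.31 and 0.820, one at −9634 bp had 0.840 and 1.21, and one at −3634 bp had 1.04 and 1.07. Shared peaks in introns lay at 43836 bp with 1.06 and 0.940 and at 69176 bp with 0.852 and 0.479. The peak at −40284 bp, the strongest distal peak by mean signal, was above the strongest start peak of Igf1 in replicate 1 and below it in replicate 2.

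Igfbp4 (chr11:99041244-99054392, plus strand) encodes an IGF binding protein that is a substrate of the PAPPA protease. The peak at its 5′ start had signals of 1.63 and 1.86. A stronger peak, 2.65 and 2.17 (mean 2.41 ± 0.339, SD, n = 2), lay inside the gene, just upstream of a transcript start 6067 bp from the 5′ end. In both libraries the internal site was thus the higher, and with the 5′ end alone the mean percentile of Igfbp4 fell from 35.4 to 27.4. With the signals of all start peaks summed, overlapping ones of replicate 2 included, it was 67.7. Its shared distal peaks lay at −1273 bp, with 2.33 and 1.82, and at 24947 bp, beyond the gene, with 2.86 and 1.48.

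Igfbp5 (chr1:72857932-72874884, minus strand) encodes a binding protein expressed in differentiating muscle. Its strongest start peak sat across the start, with its centre at −47 bp, and had signals of 3.27 and 2.98 (mean 3.13 ± 0.204, SD, n = 2), at percentiles 46.7 and 43.2. Of its 5 shared distal peaks, 4 lay in introns within 10 kb of the 5′ end. The strongest of them, 3633 bp into the gene, had 2.41 and 1.40, and the one 8873 bp in had 1.38 and 1.67. The order of these intron sites thus differed between the libraries, while the start peak was the highest in both.

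Igf1r (chr7:67952827-68233668, plus strand) encodes the IGF1 receptor and had the strongest start peak of the 10 genes. Its signal was 7.59 in replicate 1 (1283 tags) and 5.72 in the other library (669 tags), a mean of 6.65 ± 1.32 (SD, n = 2), at percentiles 84.1 and 79.3. The centre of that peak lay at −1046 and −1056 bp from the 5′ start, negative distances being upstream. With the window narrowed to 500 bp it was left out and the mean percentile fell from 81.7 to 37.4. Of the 5 internal starts of Igf1r, all of them starts of retained-intron transcripts, 4 had no peak in either library and 1 had a peak of 0.461 in replicate 1 alone.

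The highest peak of the Igf1r window was not at a start. It lay in an intron, 176384 bp from the 5′ end and 19379 bp from the nearest annotated start, and had signals of 8.29 and 5.98 (mean 7.14 ± 1.63, SD, n = 2). That exceeded the start peak of Igf1r in each library, by less than the SD between libraries, and stood above 98.3% and 95.9% of all peaks. A second intron peak, 177274 bp from the 5′ end, had 4.43 and 4.23. Igf1r had 28 distal peaks in replicate 1 and 14 in replicate 2, and 14 were shared, 12 of them in introns. The gene is long, and per 100 kb of its window this came to 3.68 shared distal peaks, above 87.4% of coding genes.

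Insr (chr8:3122061-3279617, minus strand) encodes the insulin receptor. Its start peak had 5.24 and 4.15 (mean 4.70 ± 0.769, SD, n = 2), at percentiles 66.5 and 60.6, and lay over the 5′ start. The 3 starts further inside the gene, 86900, 97766 and 120062 bp from the 5′ end, had no peak and no position with a q-value below 0.05 in either library. An intron peak 58436 bp from the 5′ end, 28464 bp from the nearest annotated start, had 3.84 and 2.53. Its sequence was GC-rich, at 65.8% GC with a CpG ratio of 0.89 (observed over expected from base composition) over the 240 bp of the peak. The medians of all shared distal peaks, taken over 300 bp around their centres, were 52.7% and 0.27. Insr otherwise had few shared distal peaks, 3 in all, or 1.17 per 100 kb, at the 54.4th percentile.

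Irs1 (chr1:82233101-82291416, minus strand) encodes the adaptor that couples both receptors to PI3-kinase. Its highest start peak had 4.03 and 3.20 (mean 3.62 ± 0.587, SD, n = 2), at percentiles 54.7 and 46.4. A second peak, 435 bp into the gene, had 3.23 and 3.03, and one 1205 bp in had 1.08 and 1.52. With the signals of these peaks summed, the mean percentile of Irs1 went from 50.6 to 79.7. Accessibility went on through the long exon: 8 of its 11 shared distal peaks lay in the exon, with signals of 0.367 to 0.816 in replicate 1 and 0.897 to 1.08 in replicate 2. Several of these abut, and with peaks within 500 bp joined the 11 became 5 stretches. The strongest distal peak of Irs1, in the intron 7915 bp from the 5′ end, had 3.80 and 3.69, close to the start peak in replicate 1 and above it in replicate 2. The highest peak of the whole window, 7.73 and 6.43, lay at −25125 bp, at the start of another gene.

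Irs2 (chr8:10984681-11008458, minus strand) encodes the other main IRS adaptor of muscle. Its start peak, with its centre −543 and −643 bp from the 5′ end, had 6.74 and 5.11 (mean 5.93 ± 1.16, SD, n = 2), at percentiles 78.8 and 72.9. Of its 6 shared distal peaks, 5 lay downstream of the gene. The strongest, 62237 bp from the 5′ end and 1669 bp from the start of the lincRNA Gm44955, had 5.63 and 4.86, and one at 54587 bp had 1.36 and 1.60. The 62237 bp site was thus higher than the start peak of every gene of the 10 except Igf1r and Irs2 in both libraries. No other coding gene has a start in the Irs2 window.

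Akt1 (chr12:112653821-112674884, minus strand) encodes the AKT kinase linked to growth. No single peak at its starts was strong: the highest had 2.12 and 2.37 (mean 2.25 ± 0.172, SD, n = 2), at percentiles 32.9 and 34.7, and lay at −567 bp from the 5′ start. The gene has many starts, and 12 start peaks in replicate 1 and 6 in replicate 2 were spread over them. With the signals of all start peaks summed, its mean percentile went from 33.8 to 93.1. A 247 bp peak of replicate 1 lay wholly inside one of 347 bp, so the count and the sum take those bases more than once. Akt1 had 8 shared distal peaks, or 6.61 per 100 kb, above 97.2% of coding genes, but 5 other coding genes have starts in the same window and 6 of the 8 peaks lay downstream of Akt1. The strongest, at −32287 bp with 3.59 and 5.20, had Cep170b as its nearest start. Among the strongest shared distal peaks of the 10 genes it was the only one higher in replicate 2.

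Akt2 (chr7:27591552-27640826, plus strand) encodes the AKT kinase most tied to insulin-stimulated glucose uptake. Its highest start peak had 3.96 and 3.09 (mean 3.53 ± 0.611, SD, n = 2), at percentiles 53.9 and 44.8. Weaker shared peaks marked groups of internal starts, with 2.01 and 1.70 at 14245 to 14306 bp and 2.95 and 2.15 at 16196 to 17110 bp from the 5′ end. With the signals of its start peaks summed, the mean percentile went from 49.3 to 93.5. Overlapping start peaks of replicate 2, with 3.09 and 2.63, both count in that sum. Only 1 distal peak was shared, at −14441 bp with 1.00 and 0.940, so that Akt2 was the only one of the 10 genes below the median density of shared distal peaks.

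Mtor (chr4:148448611-148557683, plus strand) encodes the kinase of both mTOR complexes. It had a single start peak, with 5.32 and 3.10 (mean 4.21 ± 1.57, SD, n = 2), at percentiles 67.4 and 44.9. This was the largest SD between the libraries among the 10 genes. Its strongest shared distal peaks were modest, with 1.28 and 1.05 in an intron 56130 bp from the 5′ end and 1.06 and 1.07 beyond the gene, 2426 bp from a start of Masp2.

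Ordered by mean signal, the genes ran Igf1r, Irs2, Insr, Mtor, Irs1, Akt2, Igfbp5, Igfbp4, Akt1 and Igf1. The ranges of the 2 libraries overlapped between each pair of neighbours in that order except between Igfbp5 and Igfbp4 and between Akt1 and Igf1. Igf1r, Irs2, Akt2, Igfbp5 and Igf1 held the ranks 1, 2, 6, 7 and 10 in each library taken alone, while Mtor moved from 3 to 5 and Igfbp4 and Akt1 changed places. As a log2 ratio of replicate 1 over replicate 2, centred on the median of all coding genes with both peaks, the 10 genes had a median of 0.22. The ratio was above 0 for 8 genes and below 0 for Igf1 (−0.71, between different sites) and Akt1 (−0.27), and was highest for Mtor (0.66). All 10 lay within −0.91 to 0.74, the range that holds the central 95% of coding genes, so none stood apart from the general spread between the libraries.

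The CpG ratio of the strongest start peaks divided the genes in the way their signal did, and GC content did so only in part. The peak taken for each gene was the strongest of replicate 1, which for Igf1 had no overlapping peak in replicate 2. In the 300 bp around the peak centre, the CpG ratio was 0.35 for Igf1, 0.23 for Akt1, 0.16 for Igfbp4 and 0.38 for Igfbp5, the 4 genes with the weakest peaks. For the other 6 it ran from 0.66 in Akt2 to 1.12 in Igf1r, with a median of 0.80 over all coding genes. GC content ran from 44.0% in Igf1 to 81.0% in Igf1r, which was above 99.0% of coding genes. It was 56.0% for Akt1 and Igfbp5 of the weaker group and also for Mtor of the stronger. Where replicate 2 had its strongest Igf1 peak, the peak of replicate 1 had 59.2% GC over its whole length. Other shared start peaks of the 4 weaker genes, read over the whole peak, differed from these values. The CpG ratio was 0.73 at the 5′ start of Igfbp4 and 0.73 at the second start peak of Igfbp5. It ran from 0.07 to 0.99 in Akt1 and from 0.36 to 0.62 in Igf1. The division thus describes single peaks, not whole promoters. The part of base composition in the signal was not tested.

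The other genes of the pathway were taken from lists of 59 genes by role, and 53 had a start peak in both libraries, beside 63.0% of all coding genes. Start signal was lowest on the list of secreted components and highest on that of the mTOR complexes. Of 12 other ligand and binding protein genes, 7 had start peaks in both libraries, a share near the 63.0% of all coding genes. Their median percentile was 20.2. Igfbp2 (0.414), Igfbp6 (1.20) and Igfals (1.45), which encode IGF carriers, had one in replicate 1 alone. Ins1 and Igfbp1, genes of pancreas and liver, had none. The other insulin gene, Ins2, had one in both libraries, with 1.38 and 1.21. The lowest percentiles with a peak in both were those of the IGFBP protease genes Pappa (3.9) and Pappa2 (4.2) and of Grb14 (11.9), an adaptor that inhibits the insulin receptor. Receptors and adaptors had 9 of 10 with a peak in both, at a median of 41.2, and the adaptor gene Irs4 had none.

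Further in, all 10 genes of PI3-kinase, AKT and phosphatases, all 11 of the mTOR and TSC complexes and all 16 targets of AKT and mTOR had start peaks in both libraries. Among all coding genes the share was 63.0%. The median percentiles of these lists, in that order, were 81.8, 85.3 and 70.7. The highest of all were Gys1 (98.6), the muscle glycogen synthase, Akt1s1 (97.0), which encodes the AKT substrate in mTORC1, and Ddit4 (96.8), an mTORC1 inhibitor induced by stress. Beside them Igf1 lay among the ligands, at 15.8, and Igfbp4 and Igfbp5 (35.4 and 45.0) above the median of the binding protein list. Akt1 (33.8) and Akt2 (49.3) lay below the PI3-kinase and phosphatase genes, whose lowest value was 75.3 for Pik3ca.

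**Figure D2:**
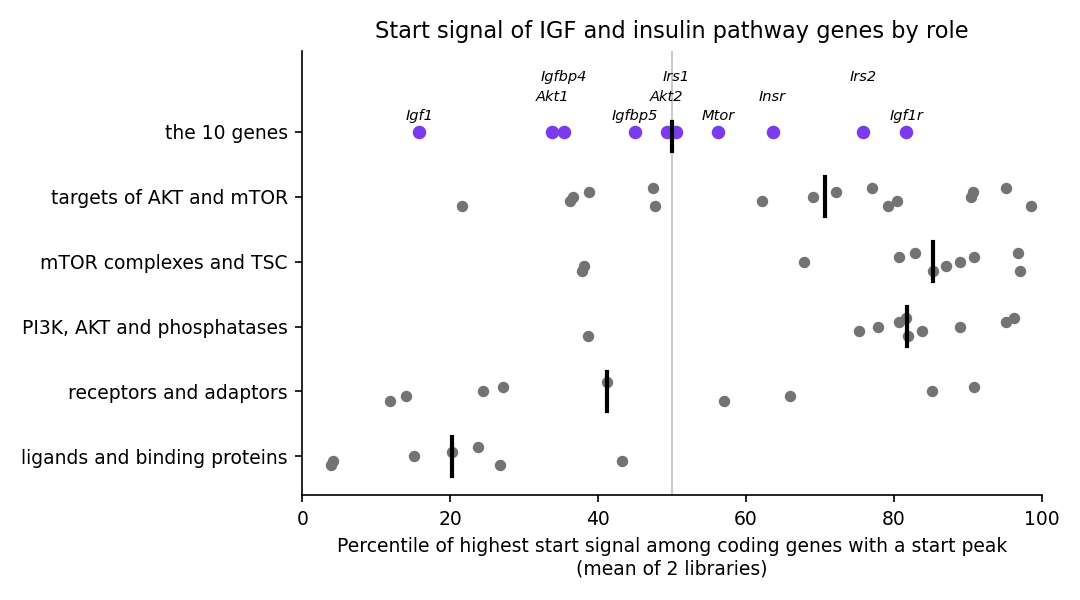
Percentile of the highest start signal among coding genes with a start peak (horizontal axis, mean of the 2 libraries) for the 10 genes (violet, named) and for other pathway genes with a start peak in both libraries (grey), 1 row per role. Black bars are medians, which rise from 20.2 for ligands and binding proteins to 85.3 for mTOR complexes and TSC.

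Away from starts, the 10 windows held 114 distal peaks in replicate 1 and 67 in replicate 2. Of these 53.5% and 86.6% overlapped a peak of the other library, beside 40.0% and 75.4% of all distal peaks. The median signal of the distal peaks was 0.751 and 0.983, beside 0.580 and 0.769 for all. Of the 61 shared distal peaks of replicate 1, 25 lay in introns, 14 upstream, 13 downstream and 9 in exons, and 22 lay within 10 kb of the 5′ end of the gene. At least 3 shared distal peaks were found for 8 of the 10 genes, against 33.9% of all coding genes. With the shorter peak lists it was 5 of 10, against 16.6%: Igf1r kept 7 such peaks, Irs1 5, Igf1 and Akt1 4 each and Irs2 3, while Insr, Akt2, Igfbp4, Igfbp5 and Mtor had 0 to 2. It was 7 of 10 with flanks of 20 kb (16.6% of all), 9 of 10 with flanks of 100 kb (54.6%), 7 of 10 with an overlap of 50% of both peaks (25.9%) and 8 of 10 with distal set by coding starts alone (36.4%). With peaks within 500 bp joined, a choice made after the data were seen, it was 8 of 10, against 32.0%. The median per gene was 5.5 beside 1.0, and per 100 kb, which takes account of gene length, 3.27 beside 0.958.

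**Figure D3:**
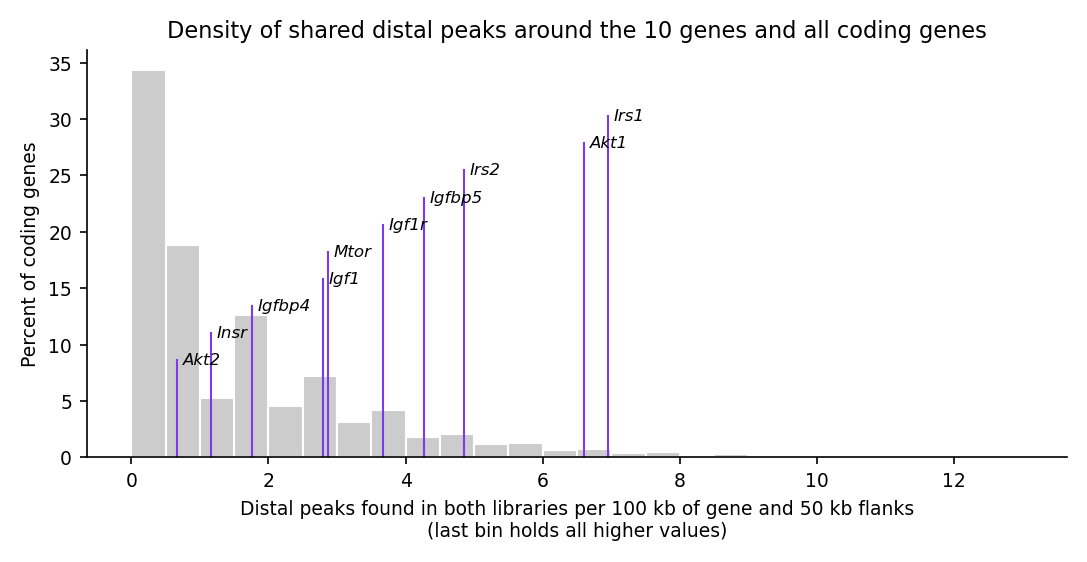
Distal peaks found in both libraries per 100 kb of the gene and its flanks (horizontal axis), as a histogram of the percent of all coding genes (grey, vertical axis) with a violet line for each of the 10 genes at an arbitrary height. Irs1 (6.95, with abutting peaks counted separately) and Akt1 (6.61) lie far to the right and Akt2 (0.670) lies below the median of 0.958.

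The genes differed widely in where these sites lay. Irs1 (6.95 per 100 kb, 97.8th percentile) and Igfbp5 (4.28, 91.2nd percentile) held most of theirs inside the gene close to the start, Irs2 (4.85, 93.5th percentile) downstream, and Igf1r across its introns. The Irs1 density counts abutting exon peaks separately, and with peaks within 500 bp joined its 11 shared distal peaks were 5 stretches. Mtor (2.87, 81.0th percentile) had 3 of 6 upstream and Igf1 (2.80, 79.7th percentile) 3 of 5. Igfbp4 (1.77) and Insr (1.17) stood near the middle, at percentiles 63.7 and 54.4. A window only places a peak near a gene, and the gene a distal site acts on was not measured.

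**Figure D4:**
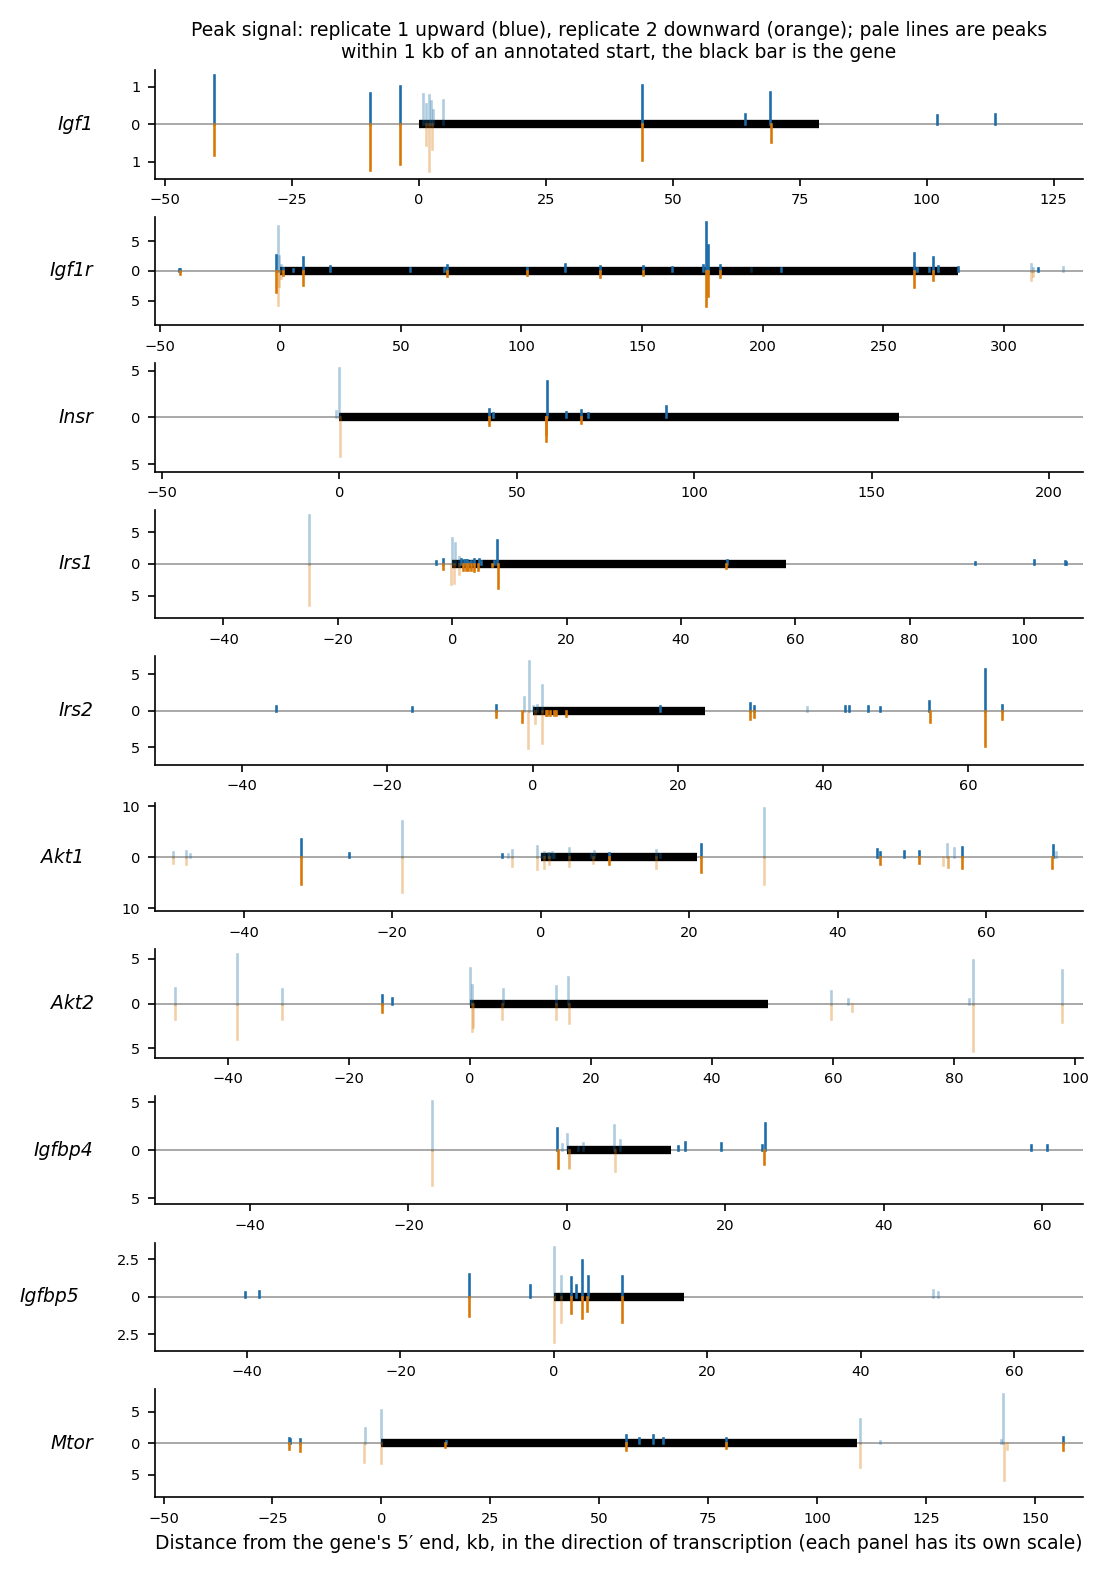
Signal of every peak from 50 kb upstream to 50 kb downstream of each gene, by distance from its 5′ end in kb (horizontal axis), with replicate 1 upward in blue and replicate 2 downward in orange and a separate signal scale per gene. Dark lines are distal peaks, pale lines peaks within 1 kb of any annotated start, and the black bar is the gene; the tall dark pair in Igf1r (8.29 and 5.98) and the dark pair downstream of Irs2 (5.63 and 4.86) stand at or above most start peaks.

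Footprints within 1 kb of the starts of the 10 genes numbered 141 in replicate 1 and 130 in replicate 2. Start peaks of the 10 genes held 11.2 and 10.9 footprints per kb, close to the 12.0 and 11.5 of all coding genes. Of these footprints, 47.2% and 45.1% overlapped a footprint of the other library, beside 53.4% and 56.4% for all coding genes. Distal peaks of the 10 genes held 10.2 and 9.81 per kb, beside 10.3 and 9.11 for all distal peaks. Footprints of the start peaks seen in 1 library thus outnumbered those seen in both, and the capitals in the sequences mark the shared part.

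Each motif was looked for, on either strand, in the central 150 bp of a peak, and a match describes letters, not binding. The start peak taken for each gene was the strongest of replicate 1, and shared distal peaks were placed as in replicate 1. The E-box CAGCTG, the form bound by myogenic factors such as MyoD, lay in 14 of the 61 shared distal peaks (23.0%), near its share of all shared distal peaks (21.6%). In the strongest start peaks it lay in those of Igf1 and Insr, and in 10.0% of all. That Igf1 peak had no overlapping peak in replicate 2. CCAAT lay in 26.2% of the shared distal peaks and in 16.3% of all, and among the start peaks in those of Irs2 and Mtor, beside 26.8% of all. TTGGCA, a core of NF1 sites, lay in the start peaks of Igfbp4 and Igfbp5, beside 6.29% of all, and in 13.1% of the shared distal peaks beside 15.8%. In both binding protein genes it overlapped a footprint of both libraries, as the capitals near the beginning of the Igfbp5 sequence show. The MEF2 consensus lay in none of the 10 start peaks or 61 distal peaks, and in 0.264% and 0.515% of all. Single start peaks held the TEAD letters CATTCCA (Igfbp4, 1.17% of all), the FOXO letters GTAAACA (Insr, 0.883% of all) and the STAT letters TTCNNNGAA (Akt1, 2.73% of all). None of the 10 held the letters of GRE (ACANNNTGT), AP-1 (TGANTCA), CRE (TGACGTCA), ETS (CCGGAAGT), NRF1 (GCGCATGC) or YY1 (AAGATGGCG) in this window, where the shares of all were 1.13% to 5.68%. FOXO factors are restrained by AKT, and their letters lay in 1 of the 61 shared distal peaks (1.64%), in the Irs2 window, beside 1.57% of all.

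Footprints of both libraries held motifs at a few named sites. In the Irs2 start peak the footprint covered GGGGCGGGG, a core of SP factor sites found in 16.1% of all strongest start peaks. In the Irs2 downstream peak the longest run of capitals covers CAGCTG and, on the other strand, TTGGCA, which share 2 bases. In the Igf1r intron peak, 1 of 3 CCAAT matches fell in a footprint of both libraries and each of the others in a footprint of 1. The CTCF consensus CNAGGGGGC matched 3.28% of the shared distal peaks, beside 4.60% of all. A longer form of 12 letters, chosen after the footprint sequences had been seen, matched 5 of the 61 (8.20%), beside 14.6% of all, and 1 of 10 strongest start peaks, that of Akt1, beside 2.42% of all. Counted over whole peaks, 4 of its 6 matches in the shared distal peaks overlapped footprints of both libraries, beside 86.5% of its matches in all shared distal peaks. These 4 lay upstream of Igf1 (−3634 bp), in an intron of Igfbp5 (8873 bp) and on either side of Mtor, and had signals between 0.645 and 1.67.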

How the data were processed

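DNase-seq peak lists, footprint lists and per-position false discovery rates of 2 libraries (biological replicates 1 and 2) were used, on mouse build mm10 per the labels. The peak signal is the authors' deposited value, and the longer of each library's 2 peak lists was used. The deposited per-position p-value column holds q-values below 0.05, and the deposited footprint files list positions with a constant 0.01. Aligner and callers were not given in the sources used here. Peaks were placed by GENCODE M21 transcription starts, with an overlap of at least 1 bp. The percentile of a gene is that of its highest start signal among coding genes with a start peak in that library. With 1 group of 2 libraries no test was run, and replicate error is the SD. The 10 genes, the pathway lists and the motifs were chosen with earlier results of these data known. Named are all 10 genes and the 2 strongest shared distal peaks per gene. Of the list genes, those without a start peak in both libraries and the 3 highest and 3 lowest are named. Pik3ca, Ins2, Pax7, Myod1, Actn3 and further peaks were named after their values were seen. Sequence came from the RefSeq GRCm38 assembly, leaving out untranslated regions. Code in Python 3.11.15 with NumPy 2.4.6 recovered 200 of 200 genes planted in simulated peak lists.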

Additional observations from a re-analysis of the deposited data

How the results depend on the processing

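All 10 genes had a start peak in both libraries with windows of 500 or 2500 bp and with the shorter peak lists. With the 5′ end alone 9 had one, the exception being Igf1. Of all 21911 coding genes, 13533 had one with 500 bp and 14280 with 2500 bp. The shorter lists gave 12647 and the 5′ end alone 12817, beside 13802 as first counted. Leaving out either replicate gave 10, which follows from all 10 having a start peak in both. The median percentile of start signal, 49.9 as the mean of the libraries, ran from 44.9 to 54.3 when a replicate was left out. It became 73.7 with the signals of all start peaks summed, a sum that grows with the number of starts and counts overlapping peaks separately. The 61 shared distal peaks became 95 with flanks of 100 kb, 29 with the shorter peak lists and 40 with an overlap of at least 50% of both peaks, which are wider windows or fewer peaks by construction. The 8 genes with at least 3 of them became 5 with the shorter lists and 7 to 9 with the other flanks, overlap and definition of distal, choices applied to this count after seeing the data. Footprint counts and the median log2 ratio between the libraries stayed within 1.5 times or 1 SD of their values under every alternative run for them. Of the values per gene or per library, 101 kept to the same limits and 41 did not. Among the 101 are the percentiles of each gene with 1 replicate left out. These lie within 1 SD of the mean of the libraries by construction, so they do not measure stability. No paired analysis was possible because there is 1 group. Replicate 2 had fewer peaks and, as read from the signal steps, fewer tags, and the part of depth in its fewer distal peaks was not tested. With 2 libraries an SD is itself imprecise.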
